A study of Homo sapiens with 4 samples.

Results

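The genes described here are 10 members of the S100 family on chromosome 1, S100A2, S100A3, S100A4, S100A6, S100A8, S100A9, S100A10, S100A11, S100A13 and S100A16. They were chosen by name from the S100A cluster and are 10 of the 23004 gene names in the data. RNA had been sequenced from BEAS-2B, an immortalized line of human bronchial epithelium, in 2 libraries of cells exposed to 100 µM formaldehyde for 48 h and 2 libraries of untreated cells of the same line. The dose and time come from the protocol label and the compound from the series title. No label ties the replicates to separate cultures, so that the spread and the p-values below measure the difference between these libraries, which may be technical. The unit is FPKM, a read density scaled to transcript length and library size, as deposited by the authors and summed over the transcripts of a gene.

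S100 proteins are small EF-hand proteins that form dimers. On binding calcium most of them open a surface that grips a target protein, such as an annexin or a cytoskeletal motor, and several also leave the cell and act on receptors such as RAGE. Most of their genes lie side by side on chromosome 1, inside a wider region of genes for the barrier layers of epithelia. In airways S100A8 and S100A9 are best known from neutrophils and inflamed epithelium, while S100A6, S100A10 and S100A11 are made by most epithelial cells.

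The sequences shown are the 250 bases before the annotated start of 4 members. They stand for the range of behaviour described below. S100A6 had the highest level, S100A16 was the other member whose groups did not overlap, S100A2 had the largest fold change, and S100A9 was listed at 0 in every library. They are taken from RefSeq on GRCh38.p14, minus strand for S100A6 (chr1:153535992-153536241), S100A16 (chr1:153609356-153609605) and S100A2 (chr1:153565845-153566094), and plus strand for S100A9 (chr1:153357604-153357853). S100A16 and S100A2 each have 2 annotated starts, and the window that holds a match was printed. Capitals mark matches on either strand to 1 of 8 motifs: the TATA box (TATAAA), the GC box (GGGCGG), the CCAAT box (CCAAT), the AP-1 site (TGANTCA), the interferon-stimulated response element, the STAT site (TTCNNNGAA), the antioxidant response element (TGACNNNGC) and the C/EBP site (TTGCNNAA).
S100A6: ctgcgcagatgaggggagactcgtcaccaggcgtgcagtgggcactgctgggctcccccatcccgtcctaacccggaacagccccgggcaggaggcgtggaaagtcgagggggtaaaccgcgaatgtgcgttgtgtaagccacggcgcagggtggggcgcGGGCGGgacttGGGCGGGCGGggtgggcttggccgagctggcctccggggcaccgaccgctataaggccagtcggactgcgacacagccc
S100A16: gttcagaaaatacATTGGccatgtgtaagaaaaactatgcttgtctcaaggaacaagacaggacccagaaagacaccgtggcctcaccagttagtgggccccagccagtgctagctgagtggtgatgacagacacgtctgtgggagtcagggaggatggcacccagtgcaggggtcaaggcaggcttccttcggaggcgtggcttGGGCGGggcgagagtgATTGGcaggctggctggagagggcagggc
S100A2: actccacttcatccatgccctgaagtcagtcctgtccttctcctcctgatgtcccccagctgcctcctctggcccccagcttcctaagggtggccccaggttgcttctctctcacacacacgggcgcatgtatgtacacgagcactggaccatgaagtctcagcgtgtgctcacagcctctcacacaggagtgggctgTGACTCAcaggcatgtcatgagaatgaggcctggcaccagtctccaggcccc
S100A9: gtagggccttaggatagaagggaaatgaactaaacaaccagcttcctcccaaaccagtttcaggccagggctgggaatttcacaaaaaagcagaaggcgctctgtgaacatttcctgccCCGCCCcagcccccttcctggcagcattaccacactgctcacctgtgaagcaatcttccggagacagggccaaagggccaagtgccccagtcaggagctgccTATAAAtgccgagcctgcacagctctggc

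The printed S100A6 window held 3 GC boxes, the nearer pair of which overlap, and the S100A16 window held 1 GC box and 2 CCAAT boxes. The S100A2 window held 1 AP-1 site and no GC box. The S100A9 window held a TATA box that begins 29 bases before the start, and 1 GC box. Over all 16 windows of the 10 members, a GC box was found in 7 and a TATA box in 5, of which 2 are overlapping S100A8 windows that hold the same match, and an AP-1 site in 2, those of S100A2 and S100A3. Of 35116 windows of the same length before annotated human gene starts, 42.6% held a GC box, 10.7% a TATA box, 32.0% a CCAAT box and 6.57% an AP-1 site. No window of a member held the interferon-stimulated response element, which 3.02% of all windows hold. These matches describe letters and were not tested for binding.

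The libraries held 14.2 and 22.2 M fragments (M, mega) with formaldehyde and 16.8 and 26.5 M untreated, as recovered from the deposited coverage and interval bounds. Over 12407 genes with an average of 1 FPKM or more, Pearson's r of log2(FPKM + 1) was 0.910 between the formaldehyde libraries, 0.903 between the untreated libraries and 0.878 to 0.923 across the groups, so that the closest pair of libraries crossed the groups. Beside the label of bronchial epithelium, KRT5 was listed at 0 in all 4 libraries and CDH1, the epithelial cadherin, was at most 0.631 FPKM. Of the simple-epithelial keratins, KRT7, KRT8 and KRT18 were abundant, while KRT19 was at most 0.378 FPKM. KRT7 had 531 and 319 FPKM with formaldehyde and 191 and 140 FPKM untreated. KRT18 had 358 and 418 FPKM against 226 and 206 FPKM, and KRT8 447 and 416 FPKM against 291 and 290 FPKM. These 3 keratins were thus higher in both exposed libraries. KRT17 (61.2 and 48.0 FPKM against 26.4 and 178 FPKM) and KRT14 (0.802 and 1.08 FPKM against 0.222 and 4.66 FPKM) overlapped between the groups. Of 7 epithelial markers tested, 4 had a positive and 3 a negative difference, with a median of 0.52, and the list of 10 summed to 1403 and 1207 FPKM with formaldehyde and 737 and 827 FPKM untreated. Of 7 markers of differentiated airway cells, only TUBB4B reached 1 FPKM on average. Of 10 fibroblast and mesenchymal markers 4 were tested, 1 with a positive and 3 with a negative difference and a median of -0.55. COL1A1, a fibrillar collagen chain, had 137 and 254 FPKM with formaldehyde and 279 and 568 FPKM untreated, while VIM, the mesenchymal intermediate filament, had 1043 and 786 FPKM against 782 and 642 FPKM. Of 15 leukocyte markers, PTPRC stayed at or under 0.0232 FPKM, and CD3E, FCGR3B and MPO were listed at 0 throughout. The 3 tested were CORO1A, at 4.75 and 4.02 FPKM with formaldehyde and 1.53 and 2.69 FPKM untreated, CD68, at 42.8 and 22.0 against 12.8 and 16.4 FPKM, and CD14, at 1.77 and 6.23 against 3.75 and 11.98 FPKM. CORO1A and CD68 were higher in both exposed libraries and CD14 overlapped. The list summed to 52.0 and 32.7 FPKM with formaldehyde and 18.5 and 31.4 FPKM untreated. None of these marker genes passed limma after adjustment, and the part of such markers in the S100 values was not tested.

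The S100 genes fell into 3 ranges of level. S100A6, S100A11, S100A10, S100A16 and S100A13 were abundant, S100A3, S100A2 and S100A4 were low, and S100A9 and S100A8 were listed at 0. The 10 genes summed to 2181 and 1691 FPKM with formaldehyde and 1655 and 1281 FPKM untreated, which was 0.404% and 0.328% against 0.323% and 0.259% of the FPKM of all named genes. S100A6 alone was 45.7% and 41.1% of that sum with formaldehyde and 38.7% and 42.2% untreated.

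**Figure D1:**
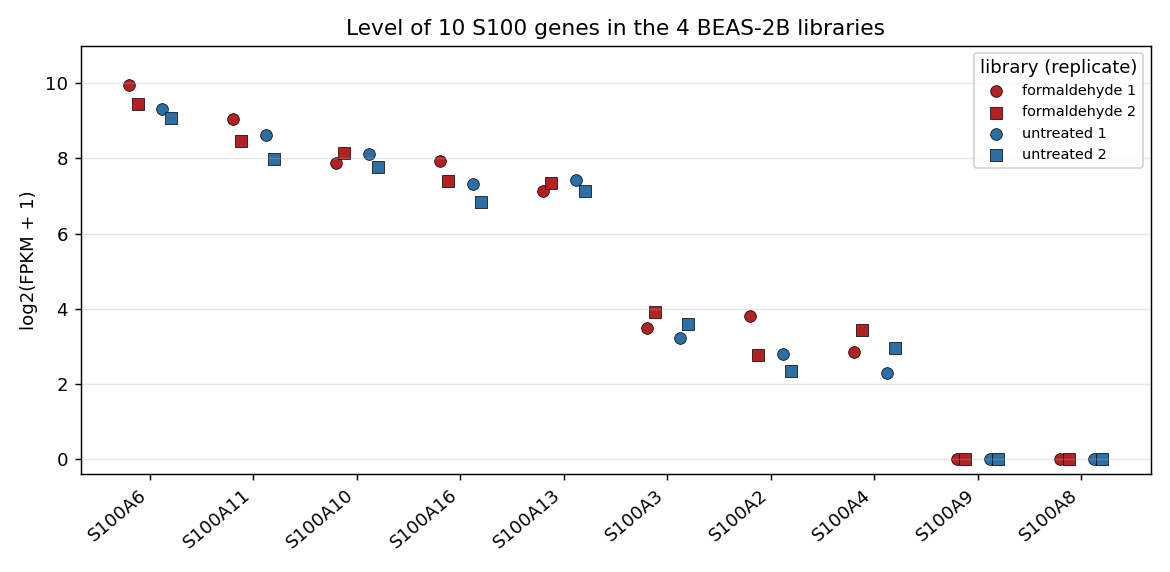
Level of each S100 gene as log2(FPKM + 1), 1 point per library, with formaldehyde in red and untreated in blue, replicate 1 as a circle and replicate 2 as a square. Genes run from the highest to the lowest mean; the lowest library of S100A13 is at 138 FPKM and the highest of S100A3 at 14.1 FPKM, and S100A9 and S100A8 lie at 0 in all 4 libraries.

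S100A6, also called calcyclin, a partner of the ubiquitin ligase adaptor CACYBP, is coded on the minus strand of chromosome 1 (hg19, 153507076 to 153508717, 3 exons). It had 997 and 695 FPKM with formaldehyde and 640 and 541 FPKM untreated, ranks 71 and 112 against 114 and 131 among the 23004 genes. Both formaldehyde libraries were above both untreated libraries, and the lower formaldehyde library was nearer to the higher untreated one than to its own replicate. The mean was 846 ± 214 FPKM with formaldehyde and 590 ± 69.6 FPKM untreated (SD, n = 2 each), 1.43-fold. On log2(FPKM + 1) the difference was 0.50 ± 0.31 (SE, 95% interval -0.29 to 1.29), and limma, fitted over all genes, gave an adjusted p = 0.9999. Counting error was small beside this. The deposited interval ran from 973 to 1021 FPKM in formaldehyde replicate 1, from about 6799 fragments. Without formaldehyde replicate 1 the difference was 0.24, and without formaldehyde replicate 2 it was 0.76.

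S100A16, a widely expressed member (hg19, 153579367 to 153585514, 3 exons), had 245 and 169 FPKM with formaldehyde and 158 and 113 FPKM untreated. It was the other gene of the family whose groups did not overlap, again with the formaldehyde libraries higher. The mean was 207 ± 53.5 FPKM with formaldehyde and 135 ± 31.3 FPKM untreated (SD, n = 2 each), 1.53-fold. The difference on the log2 scale was 0.60 ± 0.31 (SE, 95% interval -0.18 to 1.39; limma adjusted p = 0.9999), the highest moderated t among the 8 members tested, and it was 0.34 without formaldehyde replicate 1, 0.87 without formaldehyde replicate 2, 0.84 without untreated replicate 1 and 0.37 without untreated replicate 2.

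Of the 8 members tested, none passed limma at an adjusted p under 0.05, where 0.153% of all genes tested did, and none had an unadjusted p under 0.05, where 2.76% did, or 1.93% counting higher ones alone. The groups did not overlap in 2 of the 8, with formaldehyde higher, against 16.2% of all genes tested. In the other direction they did not overlap in 0 of the 8, against 10.7%. For so few genes this count is near the background. Differences were positive in 7 of 8 members, against 6831 of 12407 genes, and their median was 0.48, against 0.03 over all genes tested. The members' median stood 0.49 above the untreated mean in formaldehyde replicate 1 and 0.23 above it in formaldehyde replicate 2, which is also its value without replicate 1. At 2 libraries a group an exact permutation of the labels cannot give a p under 0.333.

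**Figure D2:**
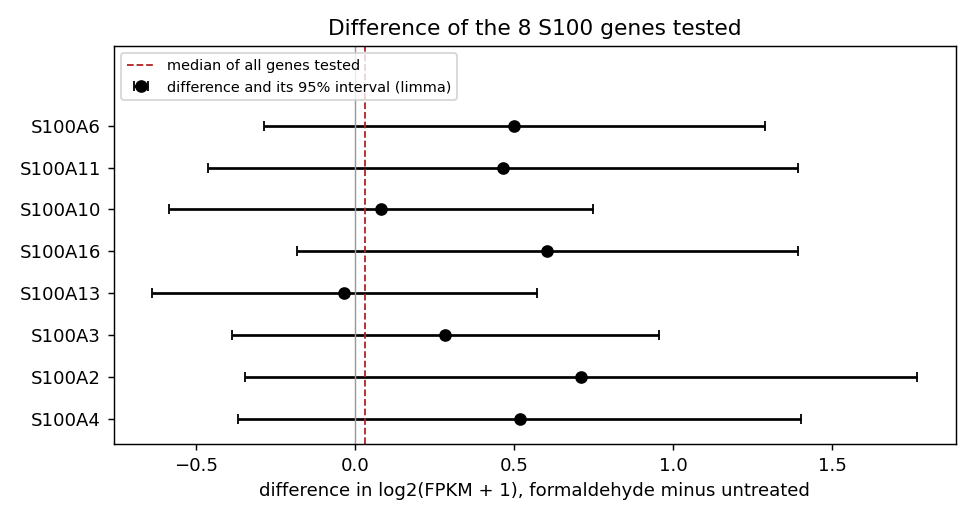
Difference in log2(FPKM + 1), formaldehyde minus untreated, for the 8 S100 genes tested, with its 95% interval from limma; the dashed line is the median of all genes tested, 0.03. Every interval includes 0; the lower bounds run from -0.64 for S100A13 to -0.18 for S100A16.

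S100A11, the partner of annexin A1 (hg19, 152004982 to 152009511), had 535 and 351 FPKM with formaldehyde and 392 and 251 FPKM untreated. The groups overlapped, and in each the replicate numbered 1 was the higher. The difference was 0.46 ± 0.36 (SE, 95% interval -0.46 to 1.39; limma adjusted p = 0.9999), and it was 0.16 without formaldehyde replicate 1, 0.77 without formaldehyde replicate 2, 0.78 without untreated replicate 1 and 0.14 without untreated replicate 2.

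S100A10, which does not respond to calcium and joins annexin A2 in a complex at the plasma membrane that gathers plasminogen (hg19, 151955386 to 151966714), had 236 and 284 FPKM with formaldehyde and 277 and 216 FPKM untreated. The formaldehyde libraries were neither above nor below the untreated ones. The difference was 0.081 ± 0.26 (SE, 95% interval -0.58 to 0.75; limma adjusted p = 0.9999), and its sign turned when formaldehyde replicate 2 (-0.053) or untreated replicate 2 (-0.099) was left out, or under quantile normalization (-0.019).

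S100A13, which takes part in the export of FGF1 and interleukin-1 alpha, proteins without a signal peptide (hg19, 153591276 to 153606568), had 139 and 162 FPKM with formaldehyde and 170 and 138 FPKM untreated. Its range with formaldehyde lay inside its untreated range. The difference was -0.034 ± 0.23 (SE, 95% interval -0.64 to 0.57; limma adjusted p = 0.9999), and it was 0.075 without formaldehyde replicate 1, 0.11 without untreated replicate 1 and 0.29 for the highest transcript alone. The gene overlaps S100A1 over 3641 nt and CHTOP over 111 nt, both on the plus strand. The strand setting is not given in the sources used here, so that reads of the strands cannot be told apart, although S100A1 was at most 2.61 FPKM.

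The sum for S100A13 hid a difference between transcripts. The annotation holds 5, which end at the same 3' base and differ in where they start and in exon number, from 3 to 5. The 551 nt transcript had 17.1 and 75.8 FPKM with formaldehyde and 61.7 and 71.0 FPKM untreated, or 12.4% and 46.9% against 36.3% and 51.3% of the gene. Formaldehyde replicate 1 was thus far below the other 3 libraries. The 612 nt transcript had 49.3 and 18.2 FPKM with formaldehyde and 43.0 and 19.6 FPKM untreated, higher in replicate 1 of each group. The 583 nt transcript had 64.2 and 61.9 FPKM with formaldehyde and 62.3 and 42.3 FPKM untreated. The 688 nt and 896 nt transcripts stayed at or under 5.91 FPKM. The transcripts overlap, and their values are estimates by Cufflinks from reads that fit several of them, so that they are given here with no test.

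**Figure D3:**
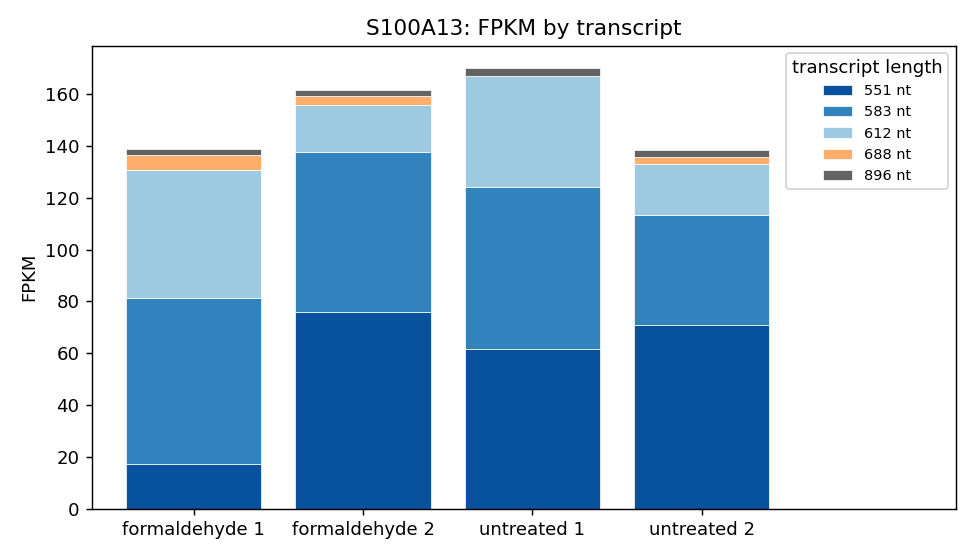
FPKM of the 5 transcripts of S100A13, stacked by library and named by length. The 551 nt transcript makes up 17.1 FPKM of the bar of formaldehyde replicate 1 and 61.7 to 75.8 FPKM of the other 3, while the whole bars run from 138 to 170 FPKM.

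The low members had few fragments, and counting error takes a larger part of their spread. S100A2, known as a target of p53 and p63 and as a gene of basal epithelium (hg19, 153533585 to 153538306), had 12.9 and 5.76 FPKM with formaldehyde and 5.97 and 4.04 FPKM untreated. A single library, formaldehyde replicate 1, stood apart, and the other formaldehyde library was within the untreated range. The deposited interval was 10.7 to 15.1 FPKM in that library, from about 139 fragments, and 4.60 to 7.34 FPKM in untreated replicate 1. The fold of the means was 1.86 and the difference 0.71 ± 0.41 (SE, 95% interval -0.35 to 1.77; limma adjusted p = 0.9999), which was 0.19 without formaldehyde replicate 1 and 1.23 without formaldehyde replicate 2. MDM2, another p53 target, was likewise highest there, at 31.4 and 8.30 FPKM with formaldehyde and 9.15 and 5.82 FPKM untreated, while TP63 was listed at 0 in all 4 libraries.

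S100A3, a zinc-binding member best known from the hair cuticle (hg19, 153519809 to 153521734), had 10.1 and 14.1 FPKM with formaldehyde and 8.36 and 11.1 FPKM untreated. The groups overlapped, and the difference was 0.28 ± 0.26 (SE, 95% interval -0.39 to 0.95; limma adjusted p = 0.9999), which was 0.50 without formaldehyde replicate 1, 0.065 without formaldehyde replicate 2, 0.098 without untreated replicate 1 and 0.47 without untreated replicate 2.

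S100A4, which binds non-muscle myosin and is studied in cell motility and metastasis (hg19, 153516095 to 153518282), had 6.16 and 9.78 FPKM with formaldehyde and 3.86 and 6.74 FPKM untreated. These overlap, rest on about 27 and 66 fragments against 20 and 55, and practically all of the level was assigned to the 512 nt transcript of 2. The difference was 0.52 ± 0.34 (SE, 95% interval -0.37 to 1.40; limma adjusted p = 0.9999), which was 0.81 without formaldehyde replicate 1, 0.22 without formaldehyde replicate 2, 0.18 without untreated replicate 1 and 0.85 without untreated replicate 2. Its partner MYH9, the heavy chain of non-muscle myosin IIA, had 262 and 265 FPKM with formaldehyde and 207 and 276 FPKM untreated.

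S100A8 (hg19, 153362508 to 153363664) and S100A9 (hg19, 153330330 to 153333503), whose products pair as the antimicrobial protein calprotectin, were listed at 0 in all 4 libraries and were not tested. For S100A8 a count of 3 fragments would have read as 0.672 and 0.430 FPKM in the formaldehyde libraries and 0.567 and 0.360 FPKM in the untreated ones, and for S100A9 as 0.574 and 0.367 FPKM against 0.485 and 0.308 FPKM. These values mark the level that a listed 0 still allows, for counting error only. In bulk RNA, fewer cells that express a gene and less of its RNA per cell cannot be told apart. Among 12 transcription factors known to act on S100A8 and S100A9, 10 were tested and none passed. C/EBP delta (CEBPD) had 19.8 and 77.2 FPKM with formaldehyde and 89.6 and 125 FPKM untreated, lower in both exposed libraries (difference -1.40 ± 0.65, SE; limma adjusted p = 0.9999). FOS, JUN and JUNB were set apart by a single library, untreated replicate 2, where FOS stood at 162 FPKM against at most 1.70 FPKM in the other 3.

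The rest of the family was nearly silent. S100A7, S100A7A, S100A7L2, S100A12, S100B, S100G and S100Z were listed at 0 in every library. S100P was above 0 only in untreated replicate 2, at 0.123 FPKM from about 1 fragment, and S100A5 and S100A14 stayed at or under 0.353 FPKM. S100A1, a calcium sensor of muscle, was the only one tested, at 1.80 and 1.85 FPKM with formaldehyde and 1.07 and 2.61 FPKM untreated, and its groups overlapped.

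In the order of levels, S100A6 lay above S100A11, since its lowest library (541 FPKM) exceeded the highest of S100A11 (535 FPKM). S100A11 was above S100A10 in each of the 4 libraries, although their ranges over the libraries overlap. S100A10, S100A16 and S100A13 overlapped as neighbours, with S100A16 above S100A13 in 2 of 4 libraries. S100A13 and S100A3 were far apart, and S100A3, S100A2 and S100A4 overlapped as neighbours in turn.

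The members followed 3 patterns over the libraries. S100A2, S100A6, S100A11 and S100A16 were higher in replicate 1 than in replicate 2 of both groups, by 1.43 to 2.24 times with formaldehyde and 1.18 to 1.56 times untreated. S100A3 and S100A4 were lower in replicate 1 of both groups, at 0.720 and 0.629 of the replicate 2 level with formaldehyde and 0.753 and 0.573 untreated. S100A10 and S100A13 were lower in replicate 1 with formaldehyde, at 0.830 and 0.858 of replicate 2, and higher there untreated, at 1.29 and 1.23. The patterns were drawn up after the values were seen. Levels of nuclear and small noncoding RNA moved between libraries too. The 7 genes of that list found summed to 593 and 379 FPKM with formaldehyde and 280 and 710 FPKM untreated. Most of this was NEAT1, at 485 and 335 against 218 and 596 FPKM. RMRP, of 268 nt, ran in another order over the libraries, at 56.9 and 4.33 against 26.2 and 14.5 FPKM. The part of these RNAs in the S100 values was not tested.

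**Figure D4:**
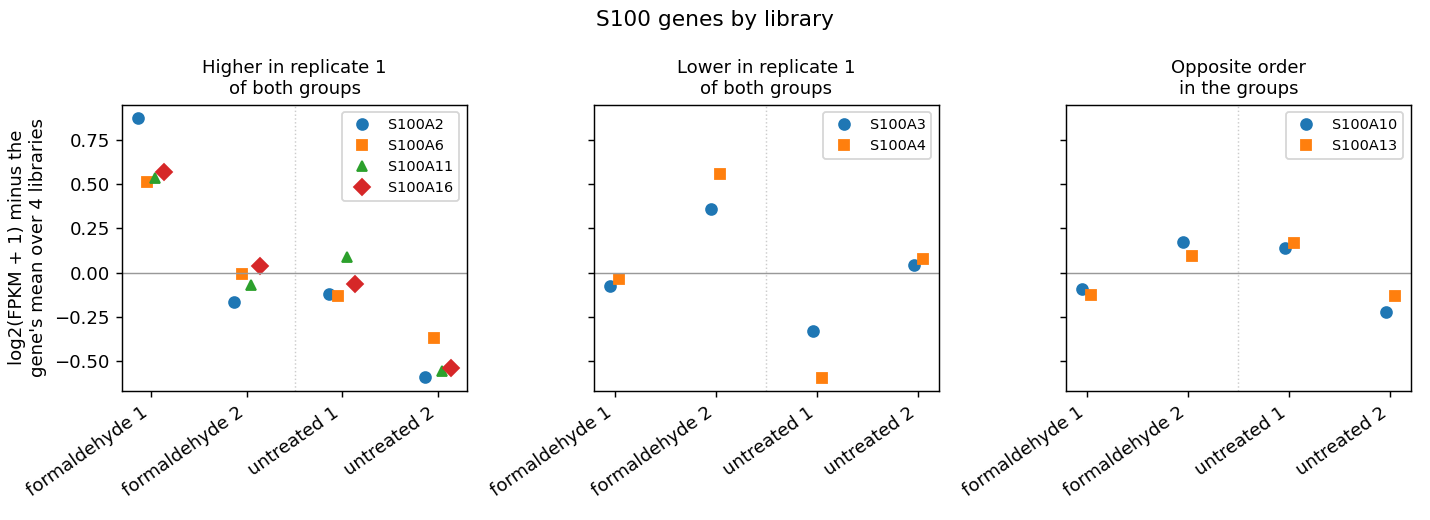
log2(FPKM + 1) of each tested S100 gene minus its mean over the 4 libraries, in the 3 patterns described, with the formaldehyde libraries left of the untreated ones in each panel. In the left panel formaldehyde replicate 1 is the highest and untreated replicate 2 the lowest for all 4 genes; in the middle panel formaldehyde replicate 2 is the highest and untreated replicate 1 the lowest for both genes.

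By distance between such centred profiles over the 4 libraries, 3 of 8682 genes of 5 FPKM or more on average and with a transcript of at least 300 nt were nearest to S100A16. These were NUDT19 (9.37 and 6.37 FPKM with formaldehyde, 5.88 and 3.87 FPKM untreated, distance 0.0342), NOL6 (distance 0.0486) and POLR1C (distance 0.0730). With 4 libraries a near match is common, and 73 genes lay within a distance of 0.2. S100A11 and S100A6 lay at 0.191 and 0.195 from S100A16, and the closest pair of members was S100A10 and S100A13, at 0.129.

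Genes between and around the members were evenly split. The window from S100A10 to S100A13 with 500 kb on each side holds 83 other genes, of which 37 were listed at 0 in all libraries and 24 were tested. Of these, 12 were higher and 12 lower with formaldehyde, and none had an adjusted or an unadjusted p under 0.05 in limma. The groups did not overlap in 1 of the 24 in each direction, against 16.2% higher and 10.7% lower over all genes tested. Their median difference was 0.01, beside 0.48 for the members.

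**Figure D5:**
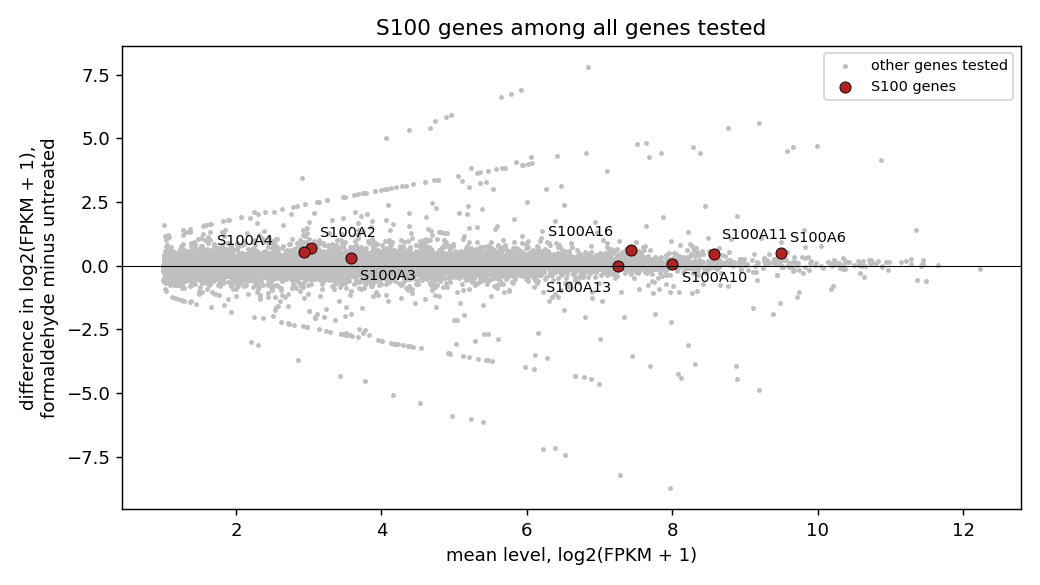
Difference in log2(FPKM + 1), formaldehyde minus untreated, against mean level for the 12407 genes tested (grey), with the 8 S100 genes tested in red. The S100 genes lie between -0.034 and 0.71, within the cloud of genes of like level.

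Annexins, the calcium-dependent membrane-binding proteins that many S100 dimers clamp, ranged from silent to among the most abundant genes. ANXA2, the partner of S100A10, had 954 and 644 FPKM with formaldehyde and 883 and 515 FPKM untreated, and ANXA1, the partner of S100A11, 248 and 175 FPKM against 222 and 112 FPKM. Both were higher in replicate 1 of each group, and the groups overlapped. S100A10 stood at 0.247 and 0.442 of the ANXA2 level with formaldehyde and 0.314 and 0.419 untreated, ratios that overlap between the groups. S100A11 stood at 2.16 and 2.01 times the ANXA1 level with formaldehyde and 1.76 and 2.23 times untreated. Of 12 annexins 10 were tested, 7 with a positive and 3 with a negative difference and a median of 0.17, and none passed. ANXA3 and ANXA4, 2 of the 10, did not overlap between the groups, with formaldehyde higher, near the 16.2% of all genes; ANXA4 stood at 16.9 and 15.6 FPKM with formaldehyde and 14.8 and 11.4 FPKM untreated. ANXA8 had 4.04 and 1.73 FPKM against 2.38 and 1.41 FPKM.

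Intracellular partners numbered 21, of which 16 were tested. The differences were positive for 11 and negative for 5, with a median of 0.14, and none passed. FGF1, a growth factor exported with S100A13, had 8.60 and 5.36 FPKM with formaldehyde and 3.07 and 2.48 FPKM untreated, and both exposed libraries were above both untreated ones (difference 1.05 ± 0.28, SE; limma adjusted p = 0.9999). IL1A, the other cargo named with S100A13, had 6.66 and 2.91 FPKM with formaldehyde and 2.14 and 1.53 FPKM untreated, also without overlap (difference 0.96 ± 0.39, SE; limma adjusted p = 0.9999). The groups overlapped for S100A13 itself. AHNAK, the giant scaffold bound by S100A10 and annexin A2, had 78.8 and 72.2 FPKM with formaldehyde and 76.1 and 76.8 FPKM untreated, and CACYBP, the partner of S100A6, 53.9 and 54.8 FPKM against 56.5 and 41.7 FPKM. DLC1, a tumour suppressor to which S100A10 binds, had 14.6 and 14.9 FPKM with formaldehyde and 8.94 and 10.1 FPKM untreated, without overlap. PPFIBP1, a liprin, was the other partner higher in both exposed libraries. IQGAP1, a scaffold of the actin cortex, was lower in both, at 43.8 and 44.4 FPKM with formaldehyde and 56.0 and 50.6 FPKM untreated, and so was CTSB, a lysosomal protease, at 79.3 and 80.6 FPKM against 89.7 and 94.6 FPKM. Of the 16 partners tested, 4 did not overlap with formaldehyde higher, against 16.2% of all genes tested. With formaldehyde lower, 2 of the 16 did not overlap, against 10.7%.

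Receptors for S100 proteins outside the cell were mostly low. AGER, the gene of RAGE, had 2.23 and 3.59 FPKM with formaldehyde and 2.39 and 5.24 FPKM untreated, and its sum runs over 70 transcript entries, most of them on alternative copies of its locus on chromosome 6. TLR4, the endotoxin receptor to which calprotectin binds, stayed at or under 0.410 FPKM. BSG, also called EMMPRIN and a receptor of S100A9, was abundant, at 443 and 440 FPKM with formaldehyde and 390 and 469 FPKM untreated. NPTN, its relative that binds S100A8, had 54.4 and 52.6 FPKM with formaldehyde and 70.2 and 60.8 FPKM untreated, lower in both exposed libraries (difference -0.28 ± 0.20, SE; limma adjusted p = 0.9999). Of 8 receptor genes 5 were tested, 1 with a positive and 4 with a negative difference, and none passed.

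Plasminogen activation, the proteolytic step that the complex of S100A10 and annexin A2 promotes at the cell surface, gave positive differences in 6 of 6 tested genes, with a median of 1.004. This stood 1.34 above the untreated mean in formaldehyde replicate 1 and 0.16 in replicate 2. PLAUR, the urokinase receptor, had 82.6 and 52.2 FPKM with formaldehyde and 26.2 and 39.2 FPKM untreated (difference 1.01 ± 0.33, SE). PLAT, tissue plasminogen activator, had 30.5 and 18.8 FPKM with formaldehyde and 8.30 and 15.8 FPKM untreated (difference 0.998 ± 0.39, SE). PLAU, urokinase itself, had 58.1 and 30.2 FPKM with formaldehyde and 25.8 and 25.6 FPKM untreated. These 3 genes did not overlap between the groups, and none of the 6 passed (limma adjusted p = 0.9999 for each of the 3 named).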

How the data were processed

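RNA of 4 BEAS-2B libraries, 2 exposed to formaldehyde and 2 untreated, was read from 1 deposited annotation file each, matched to its sample by title. The values are FPKM of transcripts with interval bounds and coverage, as deposited by the authors; the source column of the files names Cufflinks. STAR 2.5.2, Cufflinks 2.0.2, FastQC 0.10.0 and the builds hg19 and GRCh37 stand in the notes on processing left by the submitters, per the labels. The strand setting, any trimming and the treatment of multi-mapped reads: not given in the sources used here.

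FPKM were summed per gene name, leaving out 894 of 40255 transcripts without a name. Depth came from the ratio of coverage to FPKM and a read length of 51 nt, and fragment numbers from the upper bounds. They describe counting error only, and no count test was run. Genes averaging at least 1 FPKM (12407) were compared on log2(FPKM + 1), which understates the change of low genes. The test was limma 3.58.1 in R 4.3.3 (mean trend, no covariate, two-sided, Benjamini-Hochberg over all genes, threshold 0.05). It was also run on simulated data, where the planted changes were larger than those seen for the members. That run cannot show whether changes of the members' size would pass. Intervals use the moderated degrees of freedom. Promoter windows, matched by symbol for all 10 genes, are on another build than the files and were used for sequence alone. Figures used matplotlib 3.10.9 and Python 3.11.15.

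The members and lists were chosen with earlier results of these data known. Genes named are the members, the other S100 genes, ANXA1, ANXA2, AGER, TLR4 and AHNAK, up to 4 genes per list by moderated t and the 3 profiles nearest to the member with the largest moderated t. Some of these are not reported here. BSG, MYH9, CACYBP, TP63, CHTOP, PPFIBP1, IQGAP1, CTSB and the marker genes named for the cell type were added after their values were seen. Alternatives were the pseudocount, the filter, 3 scalings, length, highest transcript, variance model, replicate number as a block, and each library left out.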

Additional observations from a re-analysis of the deposited data

How the results depend on the processing

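The number of S100 genes past the threshold stayed 0 under the 15 alternatives run, with adjusted p-values of 0.588 or more. Their median difference of 0.48 ran from 0.36 to 0.48 under the scalings, filters, pseudocount, variance models, length and transcript choices, and from 0.23 (without formaldehyde replicate 1) to 0.49 with a library left out. S100A2, S100A3, S100A4, S100A6, S100A11 and S100A16 kept a positive difference in all 15. S100A10 turned to -0.019 under quantile normalization, -0.053 without formaldehyde replicate 2 and -0.099 without untreated replicate 2, within a range of -0.099 to 0.26 over the libraries left out. S100A13 turned to 0.29 with the highest transcript of each gene, 0.075 without formaldehyde replicate 1 and 0.11 without untreated replicate 1, within -0.18 to 0.11 over the libraries left out; the cause was not tested. The count of S100 genes whose groups do not overlap, 2, became 4 to 6 with a library left out, where the share over all genes became 29.7% to 47.0%, against 16.2%. Over all genes, 19 passed, 0 with no filter on low values (652 at an unadjusted p under 0.05), 1 among genes of at least 300 nt, 29 with the replicate block and 46 to 62 with a library left out. With every library scaled to the same FPKM sum, groups that do not overlap numbered 1510 higher and 1811 lower, against 2005 and 1327 unscaled.

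The replicate numbers are labels only. Deviations of same-numbered libraries correlated at r = 0.25 over 12407 genes, which are not independent, and the 2 pairs cannot show whether the numbers pair cultures. With the replicate block, 3 S100 genes had an unadjusted p under 0.05, S100A2 (0.0196), S100A4 (0.0272) and S100A16 (0.0286), where 915 of 12407 genes (7.37%) did, and none passed after adjustment over all genes in limma (adjusted p = 0.588, 0.617 and 0.621). Between same-numbered libraries, formaldehyde over untreated, S100A16 stood at 1.55 and 1.49, S100A6 at 1.56 and 1.28, S100A11 at 1.36 and 1.40, S100A4 at 1.59 and 1.45, S100A2 at 2.16 and 1.43, S100A3 at 1.21 and 1.27, S100A10 at 0.850 and 1.32 and S100A13 at 0.816 and 1.17.

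Depth limits S100A4, S100A3 and S100A2, which rest on 20 to 167 fragments a library, and bounds S100A8 and S100A9.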

Other observations

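Other calcium-binding proteins with EF-hands, the fold that S100 proteins share with calmodulin, showed no common direction. Of 24 genes 21 were tested, 11 with a positive and 10 with a negative difference and a median of 0.00, and none passed. The groups did not overlap in 4 of the 21 with formaldehyde higher, against 16.2% of all genes tested. With formaldehyde lower they did not overlap in 3 of the 21, against 10.7%. The genes named next are all among these. SPARC, a secreted matrix protein with EF-hands, had 155 and 224 FPKM with formaldehyde and 293 and 357 FPKM untreated, lower in both exposed libraries (difference -0.79 ± 0.29, SE; limma adjusted p = 0.9999). CAPN2, the large subunit of a calcium-activated protease, had 115 and 62.7 FPKM with formaldehyde and 59.1 and 43.9 FPKM untreated, higher in both exposed libraries. CALU, a calcium-binding protein of the secretory pathway, had 85.8 and 91.0 FPKM against 108 and 133 FPKM, again without overlap, and ACTN1, an actin crosslinker, 160 and 136 FPKM against 117.3 and 117.7 FPKM.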
